A study of Homo sapiens with 4 samples.

Results

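The receptors for glutamate, GABA and glycine were followed in SK-N-BE(2) cells with and without knockdown of IGF2BP3. The members are all protein-coding genes whose symbol names an AMPA (GRIA), kainate (GRIK), delta (GRID), NMDA (GRIN) or metabotropic glutamate receptor (GRM), a GABA-A or rho subunit (GABR), a GABA-B subunit (GABBR) or a glycine receptor subunit (GLRA, GLRB). This gave 52 genes of the 64252 in the table, of which 31 had enough counts to be tested and 21 did not. RNA sequencing counts were available for 4 libraries. SK-N-BE(2) is an established human neuroblastoma cell line, so all libraries come from 1 line. In 2 libraries, named shIGF2BP3, the cells carried a short hairpin RNA against IGF2BP3, an RNA-binding protein that reads the m6A mark on mRNA, and in the other 2, named shControl, they carried a control hairpin. The labels give neither the number of hairpins used nor whether replicates are separate cultures, and p-values here reflect the scatter of the libraries alone, which could be technical. The series title asks how IGF2BP3 acts on the stability of m6A-marked E2F2 mRNA, and these libraries measure RNA levels alone.

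AMPA, kainate and NMDA receptors are cation channels opened by glutamate, the main excitatory transmitter of the brain, and each is assembled from several subunits. GABA-A, rho and glycine receptors are chloride channels of the pentameric family, opened by the main inhibitory transmitters. Metabotropic glutamate receptors and GABA-B receptors signal through G proteins. Neuroblastoma arises from the sympathetic lineage of the neural crest, and sympathetic cells receive most of their fast input through acetylcholine receptors.

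Total counts lay between 26755695 and 31946756 per library, and a count of 0 allows a level of up to 3 counts, or 0.0958 to 0.111 CPM (counts brought to one library size by TMM scaling), which covers counting error only. The targeted RNA, IGF2BP3, was at 4215 and 4347 counts with the control hairpin and at 813 and 875 with its own (log2 fold change -2.28, SE 0.09, adjusted p = 1.655e-12). Unless another tool is named, adjusted p-values are from the quasi-likelihood test of edgeR, corrected over all tested genes by the Benjamini-Hochberg method. All 11 markers of noradrenergic neuroblastoma passed the count filter, with a summed level of 6560 to 6990 CPM in shIGF2BP3 and 7960 to 8290 CPM in shControl. Of these 11, 8 fell (72.7%), among them HAND2 and TH, and TBX2 and DBH rose (18.2%), where 25.6% of all tested genes fell and 25.9% rose. Among 8 Schwann cell and glial markers only 4 were tested, and of these 4, 1 rose and GFAP fell. SOX10 was at 0 in every library, and the sum over all 8 was 9.62 to 9.64 against 5.94 to 6.28 CPM. All 7 fibroblast markers were tested, and COL1A1, COL3A1 and DCN rose and LUM fell. Their sums were 733 to 749 against 572 to 600 CPM, with none at 0 throughout. Only 2 of 5 leukocyte markers were tested, and both passed: CD68 rose and PTPRC fell. CD3E and LYZ were at 0 in every library, and the 5 summed to 2.70 to 2.75 against 1.05 to 1.15 CPM. Among 4 epithelial markers 2 were tested, and of these KRT8 fell. The 4 summed to 3.64 to 5.54 against 6.29 to 7.95 CPM. The part of these shifts in the receptor results was not tested. In bulk RNA, fewer cells that express a gene and less of its RNA per cell cannot be told apart.

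All 4 tested NMDA receptor genes rose, with the highest median log2 change (2.04) of the families with more than 1 tested member, and most other ionotropic glutamate receptor genes rose as well. Of the 31 tested receptor genes, 17 rose in shIGF2BP3 (54.8%), where 25.9% of all 19767 tested genes rose. Only 4 fell (12.9%), where 25.6% of all tested genes fell. The groups of libraries did not overlap for 25 of the 31 (80.6%), against 74.5% of all tested genes. The median log2 fold change was 0.58 over the tested receptor genes and 0.01 over all tested genes, and the median size without its sign was 1.23 and 0.51. The receptor genes were also less abundant, with a median average log2 CPM of 1.44 against 3.80 for all tested genes. Being tested depended on the counts themselves: GABRA5, GABRR2 and GRM4 were among 5 genes that reached the filter level in shIGF2BP3 only, and GABRP and GABRB1 in shControl only. Among the 24 that reached it in both groups, 13 rose, 3 fell and 8 did not pass the test. All tested genes were not split in this way, so these counts have no like share beside them. The family split was uneven: 10 of 12 tested ionotropic glutamate receptor genes rose and none fell, while the 10 tested GABA-A genes held 4 that rose and 3 that fell.

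**Figure D1:**
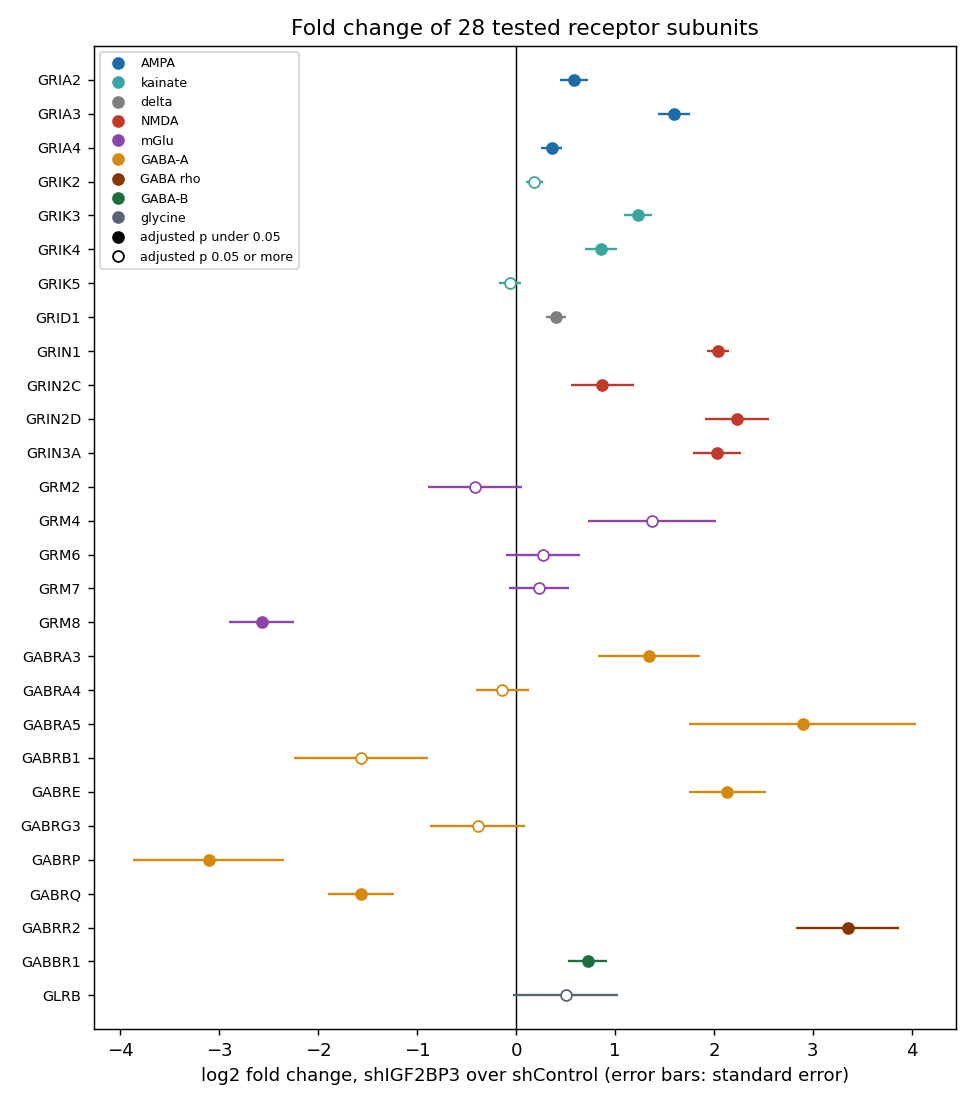
Log2 fold change of 28 of the 31 tested receptor genes, shIGF2BP3 over shControl, with bars for the standard error and colours for families; filled points passed the test at an adjusted p of 0.05. The 4 NMDA receptor genes all lie right of 0, and the lowest points are GABRP at -3.11 and GRM8 at -2.57.

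Which receptors these cells express was read from the level per kilobase of exon, so that genes of different length can be compared. In shControl GRIK5 stood at 9.67 ± 1.61 CPM per kb (SD, n = 2). Below it stood GRIK2 at 7.70 ± 0.0304, GRID1 at 4.85 ± 0.269, GRIA4 at 4.15 ± 0.494 and GRIN1 at 2.95 ± 0.444 CPM per kb, each with libraries apart from the next. GRIA2 at 1.69, GRIK3 at 1.34 and GRIK4 at 1.07 CPM per kb followed, and GRIA3 at 0.940 overlapped with GRM8 at 0.907. GABBR1 at 0.672 CPM per kb and the remaining named members lay lower. This order depends in part on the length used. Per kb of the longest transcript, GRIA4 (rank 4) stood above GRID1 (rank 5) in shControl. By that length GRM8 (rank 9) stood above GRIK4 (rank 10) and GRIA3 (rank 12). The ranks below are by merged exon length. In shIGF2BP3 GRIN1 moved from rank 6 to rank 1 of all members, at 12.2 ± 0.654 CPM per kb, above GRIK5 at 9.31 ± 0.151 and GRIK2 at 8.75 ± 0.0488. Further down, GABRR2 moved from rank 25 to rank 12, GRM8 from rank 11 to rank 23 and GABRP from rank 20 to rank 35.

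**Figure D2:**
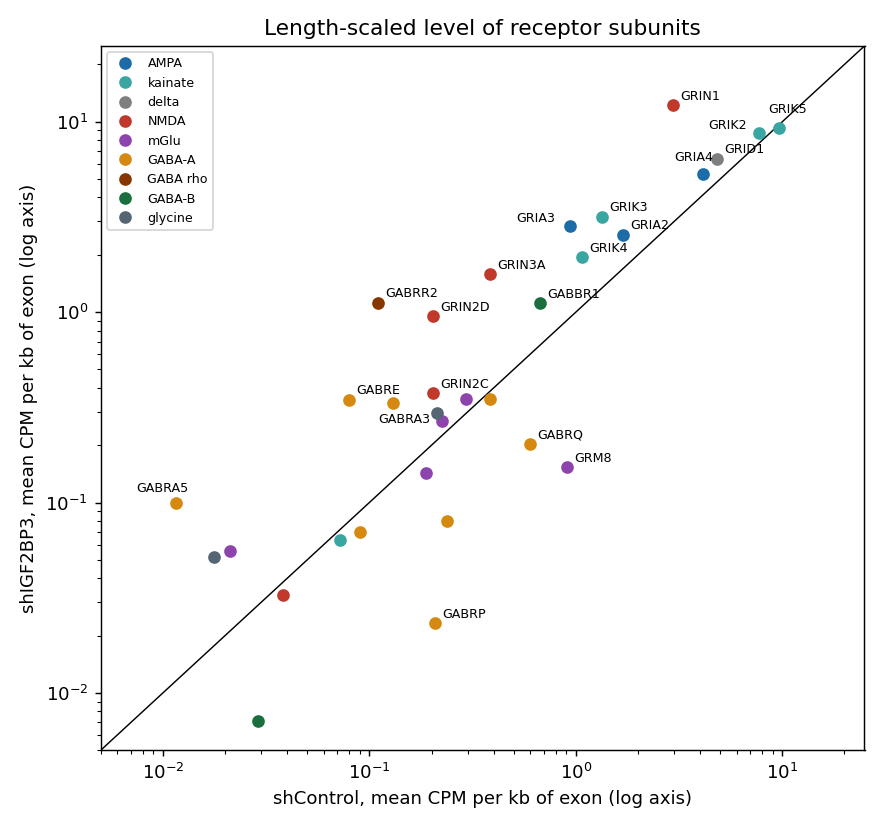
Mean level of receptor genes in CPM per kb of exon, shControl on the x axis and shIGF2BP3 on the y axis, both on log axes, for 34 members above 0 in both groups, with a line of equal level. GRIN1, GABRR2, GRIN2D and GRIN3A lie well above the line, and GRM8, GABRQ and GABRP below it.

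The NMDA receptor has 7 subunit genes, and all 4 that could be tested rose. A functional channel needs GluN1, the glycine-binding subunit encoded by GRIN1, together with GluN2 or GluN3 subunits. GRIN1 (ENSG00000176884, chr9:137138390-137168762, plus strand, GRCh38) was counted 2417 and 2170 times under knockdown and 478 and 688 times in the controls. That is 85.3 and 79.1 CPM against 17.75 and 22.0 CPM, a 4.12-fold rise (log2 2.04, SE 0.11, adjusted p = 3.895e-11). The lower shIGF2BP3 library stood far above the higher shControl library. LRRC26, on the opposite strand, shares 5 exonic bases with GRIN1 and had at most 16 counts in a library.

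Of the GluN2 subunits, which bind glutamate and set the channel's kinetics, GRIN2D (chr19:48394875-48444931, plus strand), the GluN2D subunit typical of immature neurons, had 140 and 131 counts against 31 and 29. At 4.94 and 4.78 against 1.15 and 0.927 CPM it rose 4.70-fold (log2 2.23, SE 0.33, adjusted p = 1.7e-05). GRIN2C, the GluN2C subunit known from cerebellar granule cells, rose less, from 41 and 61 counts to 99 and 80 (log2 0.87, SE 0.32, adjusted p = 0.03127). This call was lost without a count filter (adjusted p = 0.05834), with DESeq2 (0.1608), and without shIGF2BP3 replicate 1 (0.1703), shControl replicate 1 (0.1493) or shControl replicate 2 (0.05025). The remaining GluN2 genes were not detected at a testable level: GRIN2A had 6 and 0 against 0 and 2 counts, and GRIN2B was at 0 in every library.

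GRIN3A (chr9:101569353-101738580, minus strand) encodes GluN3A, a glycine-binding subunit that lowers calcium entry and is most abundant early in development. Counts were 294 and 420 under knockdown and 83 and 99 in shControl, or 10.4 and 15.3 against 3.08 and 3.16 CPM. The 4.10-fold rise (log2 2.03, SE 0.24, adjusted p = 1.648e-06) exceeded the spread of the shIGF2BP3 libraries, which was wider than that of the controls. GRIN3B had between 2 and 5 counts and was not tested. Together the NMDA receptor genes summed to 15.4 and 14.9 CPM per kb in shIGF2BP3 and 3.48 and 4.09 in shControl. GRIN1 made up 78.7% to 82.4% of that sum in shIGF2BP3 and 75.9% to 79.9% in shControl, ranges that overlap, while the share of GRIN2C was lower, at 2.28% and 2.65% against 5.11% and 5.56%.

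RefSeq promoter windows were available for 38 of the 52 members, with 57 windows of 300 bases, 250 before to 50 after a transcription start (GRCh38.p14). They were searched on both strands for the GC box GGGCGG (in 45.0% of all 35116 windows), the E-box CACGTG (7.26%), the E2F words TTTCCCGC, TTTCGCGC, TTTGCCGC and TTTGGCGC (3.31% for any of the 4), the TATA box TATAAA (11.5%), and the left and right parts of the RE1 element bound by the repressor REST, TTCAGCACC (0.376%) and GACAGCGCC (0.558%). Of the 38 members, 22 had a GC box, 5 a TATA box, 4 an E2F word, 2 an E-box, 2 a left and 1 a right RE1 part. A member was counted if any of its windows matched, so these counts are not comparable with the shares of single windows. The windows of 2 NMDA receptor genes that rose by a like amount are shown because their starts differ in these words, with matches in capitals. GRIN3A (chr9:101738598-101738897, minus strand, 60.0% GC) holds 1 E2F word, TTTGGCGC, and GRIN2D (chr19:48393418-48393717, plus strand, 62.3% GC) holds 1 GC box and no E2F word.
GRIN3A: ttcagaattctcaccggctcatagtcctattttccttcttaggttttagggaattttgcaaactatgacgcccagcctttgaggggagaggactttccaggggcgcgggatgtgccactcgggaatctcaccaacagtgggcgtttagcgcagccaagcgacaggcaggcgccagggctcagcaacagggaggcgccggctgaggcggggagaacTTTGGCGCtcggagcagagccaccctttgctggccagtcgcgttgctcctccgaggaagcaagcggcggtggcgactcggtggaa
GRIN2D: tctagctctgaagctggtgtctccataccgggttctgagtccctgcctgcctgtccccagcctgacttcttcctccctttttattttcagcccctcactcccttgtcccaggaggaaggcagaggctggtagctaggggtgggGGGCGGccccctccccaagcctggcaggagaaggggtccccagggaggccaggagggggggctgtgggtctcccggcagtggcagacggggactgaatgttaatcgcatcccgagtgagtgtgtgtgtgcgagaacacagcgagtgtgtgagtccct
E2F words were searched because the series concerns E2F2. Among members with a window, 1 of 9 that rose and 0 of 3 that fell held one, and a match describes letters, not binding.

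**Figure D3:**
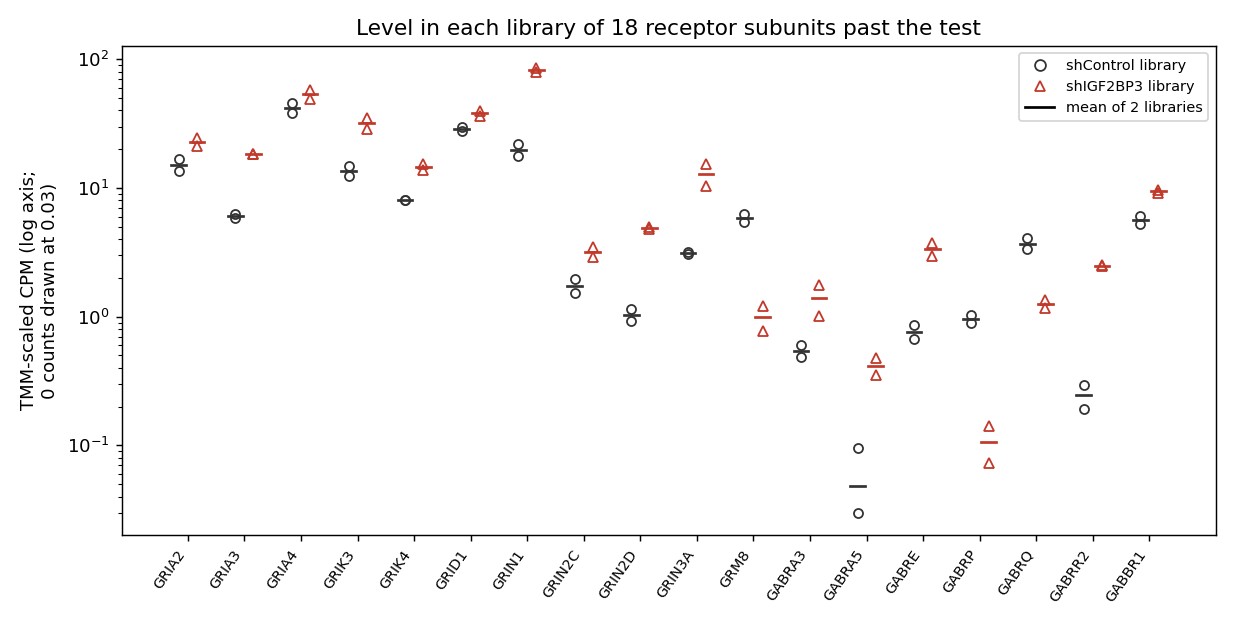
TMM-scaled CPM (log axis) in each library of 18 of the 21 receptor genes past the test, triangles for shIGF2BP3, circles for shControl and a dash for the mean of 2 libraries; a count of 0 is drawn at 0.03. No gene shown has overlapping groups, and GABRA5 has 1 control library at 0.

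AMPA receptors carry most fast excitatory transmission, and 3 of the 4 subunit genes were tested, all of which rose. GRIA3 (chrX:123184153-123490915, plus strand), the GluA3 subunit, had 18.3 and 18.5 CPM in shIGF2BP3 and 6.31 and 5.88 in shControl, from 519 and 508 against 170 and 184 counts. It rose 3.03-fold (log2 1.60, SE 0.17, adjusted p = 2.59e-07), and each group's libraries lay close together. GRIA2, the GluA2 subunit that keeps AMPA receptors nearly impermeable to calcium once its RNA is edited, had 21.3 and 24.2 against 13.5 and 16.7 CPM (log2 0.58, SE 0.14, adjusted p = 0.002148). GRIA4, the GluA4 subunit and the most abundant of the family per length, had 49.3 and 57.9 against 45.35 and 38.3 CPM (log2 0.36, SE 0.11, adjusted p = 0.00898). The GRIA4 libraries did not overlap, but the gap between groups was smaller than the spread within either. Its call was lost without a count filter (adjusted p = 0.06105) and without either second library, at a log2 change of 0.24 without shIGF2BP3 replicate 2 (0.1305) and 0.22 without shControl replicate 2 (0.1218). GRIA1 had at most 4 counts and was not tested.

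The make-up of the AMPA family shifted with these unequal changes. GRIA3 supplied 27.9% and 25.2% of the family's summed level per kb in shIGF2BP3 and 13.9% and 13.8% in shControl. GRIA4 supplied 48.3% and 50.8% against 64.4% and 57.8%, while the share of GRIA2, 23.6% and 24.0% against 21.6% and 28.4%, overlapped between groups. The family sum was 10.1 and 11.3 against 6.98 and 6.57 CPM per kb. With 2 libraries a group the smallest exact permutation p for such a value is 0.333, so shares and sums are given without a test. The GRIA2 window at chr4:157220369-157220668 (plus strand, 74.3% GC) is shown because it was the one member window with both RE1 parts, which lie on the minus strand and so read GGCGCTGTC and GGTGCTGAA here. A GC box precedes them.
GRIA2: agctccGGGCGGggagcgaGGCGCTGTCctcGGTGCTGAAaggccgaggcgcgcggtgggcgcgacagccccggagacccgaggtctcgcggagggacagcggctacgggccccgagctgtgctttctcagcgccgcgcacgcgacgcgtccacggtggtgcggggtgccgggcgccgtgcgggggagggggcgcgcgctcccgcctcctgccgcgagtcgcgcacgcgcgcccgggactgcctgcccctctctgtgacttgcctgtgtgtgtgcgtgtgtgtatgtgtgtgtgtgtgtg
GRM2, the other member with an RE1 part, did not pass the test.

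Kainate receptors modulate transmitter release and excitability, and 4 of their 5 genes were tested. GRIK3, the low-affinity GluK3 subunit, had 28.9 and 35.2 CPM in shIGF2BP3 and 12.3 and 14.8 in shControl, and rose 2.35-fold (log2 1.23, SE 0.14, adjusted p = 8.581e-07). GRIK4, the high-affinity GluK4 subunit that needs a partner to form a channel, had 15.4 and 13.8 against 8.10 and 8.02 CPM (log2 0.86, SE 0.17, adjusted p = 2.864e-04). The 2 most abundant kainate subunits did not pass the test. GRIK5, the partner subunit GluK5, stood at 46.1 and 47.2 against 42.8 and 54.2 CPM with overlapping groups (log2 -0.06, SE 0.11, adjusted p = 0.6663), and its sign turned to 0.018 with library size alone and 0.11 without shControl replicate 2. GRIK2, the GluK2 subunit, stood at 66.6 and 66.1 against 58.2 and 58.6 CPM (log2 0.18, SE 0.08, adjusted p = 0.07171), and it passed with library size alone (0.27, adjusted p = 0.01283) or upper quartile scaling (0.24, 0.02266). GRIK1 had 6 and 9 against 13 and 4 counts and was not tested. The kainate sum stayed the highest of any family, at 22.9 and 23.5 against 18.6 and 21.1 CPM per kb.

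Delta receptors bind glycine, D-serine and cerebellins and organise synapses. GRID1, the GluD1 gene, had 39.4 and 36.45 CPM in shIGF2BP3 and 29.9 and 27.6 in shControl (log2 0.40, SE 0.11, adjusted p = 0.003848), a small rise with groups apart.

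**Figure D4:**
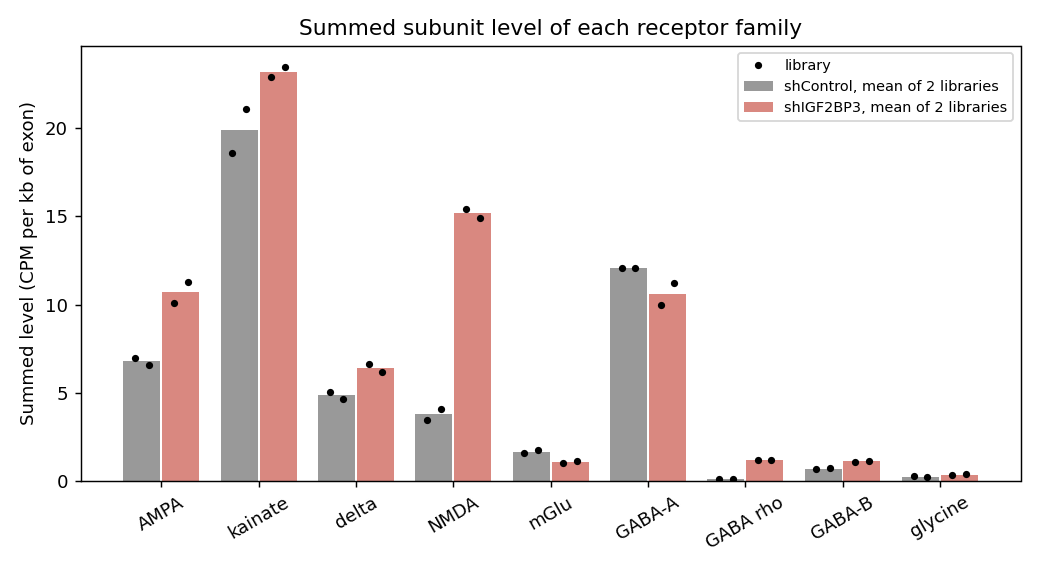
Summed level of each receptor family in CPM per kb of exon, bars for the mean of 2 libraries and points for each library, with the axis from 0. The NMDA bar goes from 3.78 in shControl to 15.2 in shIGF2BP3, the GABA-A bar from 12.1 to 10.6, and the sums of rho, GABA-B and glycine receptors stay below 2.

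Metabotropic glutamate receptors were low, and their 6 tested genes moved in no common direction. GRM8 (chr7:126438598-127253294, minus strand), a group III receptor that lowers cyclic AMP and sits on axon terminals, was the most abundant of them in shControl and fell. Counts were 22 and 33 under knockdown and 146 and 197 in shControl, or 0.777 and 1.20 against 5.42 and 6.29 CPM. The level was 5.95-fold lower (log2 -2.57, SE 0.33, adjusted p = 3.59e-06), and its share of the family's summed level per kb was 11.7% and 16.7% against 53.4% and 56.1%.

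Of the other metabotropic genes, 4 were tested and did not pass. GRM4, a group III receptor, had 15 and 35 against 9 and 11 counts (log2 1.37, SE 0.65, adjusted p = 0.08781) with unlike shIGF2BP3 libraries. Without replicate 1 of shIGF2BP3 it passed (1.88, adjusted p = 0.03638), and without replicate 2 the log2 change was 0.62 (0.6159). GRM7, of group III and known from presynaptic release sites, stood at a log2 change of 0.23 (SE 0.31), and GRM6, the receptor of retinal ON bipolar cells, at 0.27 (SE 0.37). GRM2, a group II receptor, had 16 and 40 against 36 and 42 counts (log2 -0.41, SE 0.47), with a difference between its shIGF2BP3 libraries larger than that between groups. GRM3 and GRM5 were at 0 in every library. The family sum was 1.03 and 1.12 against 1.57 and 1.74 CPM per kb, a ratio of 0.648.

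GABA-A receptors are usually built from alpha, beta and gamma or delta subunits, and 10 of their 16 genes were tested. Among alpha subunits, which shape GABA affinity and benzodiazepine binding, GABRA4 had the highest CPM and did not pass, at 3.32 and 5.21 against 4.05 and 5.24 CPM (log2 -0.14, SE 0.27). Per kb of exon it was the highest in shControl, but in shIGF2BP3 its 0.274 and 0.430 CPM per kb overlapped with GABRA3 at 0.421 and 0.243. GABRA3 had 50 and 28 against 13 and 19 counts (log2 1.34, SE 0.51, adjusted p = 0.03738). That call rested on the libraries and tools used: it was lost without a count filter (adjusted p = 0.08865), with DESeq2 (0.1886) or limma voom (0.06264), and without shIGF2BP3 replicate 1 (0.89, 0.3214), shControl replicate 1 (0.1352) or shControl replicate 2 (0.08968). GABRA5 had 10 and 13 against 0 and 3 counts (log2 2.90, SE 1.15, adjusted p = 0.04162). It was lost without a count filter (0.08796), with DESeq2 (0.1874), and without shIGF2BP3 replicate 1 (0.06734), shControl replicate 1 (2.06, 0.2381) or shControl replicate 2 (6.52, 0.06761), the last a fitted value against a control at 0 that depends on the prior count. GABRA2 and GABRA6 were at 0 in every library.

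Of the beta and gamma subunits, GABRB1 had 6 and 8 against 17 and 27 counts and did not pass (log2 -1.57, SE 0.68, adjusted p = 0.06189). It overlaps GABRA4 by 204 exonic bases on the opposite strand, and the strand setting of the counts is not given in the sources used here. GABRG3 did not pass (log2 -0.39, SE 0.48), and GABRB2, GABRG1 and GABRD were at 0 in every library.

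The rarer GABA-A subunits epsilon, theta and pi were low but changed. GABRE (chrX:151953124-151974680, minus strand), the epsilon subunit, was counted 84 and 102 times under knockdown and 23 and 21 times in shControl, or 2.97 and 3.72 against 0.854 and 0.671 CPM. It rose 4.39-fold (log2 2.14, SE 0.39, adjusted p = 1.592e-04). GABRQ (chrX:152638183-152657534, plus strand), the theta subunit of aminergic neurons, fell from 90 and 127 to 38 and 32 counts, or from 3.34 and 4.06 to 1.34 and 1.17 CPM (log2 -1.57, SE 0.34, adjusted p = 7.731e-04). GABRP (chr5:170763350-170814047, plus strand), the pi subunit known mainly outside the nervous system, was counted 4 and 2 times under knockdown and 24 and 32 times in shControl (log2 -3.11, SE 0.77, adjusted p = 0.002263). Its shIGF2BP3 libraries were at or near the level that 3 counts give, so the size of that fall is poorly set.

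GABRE and GABRQ lie near each other on the X chromosome with GABRA3 between them, and they moved in opposite directions. Their promoter windows are shown because they differ little in the words searched, each with 5 GC boxes (GGGCGG, or CCGCCC on the other strand) and none of the other words. The GABRE window is chrX:151974627-151974926 (minus strand, 76.7% GC) and the GABRQ window chrX:152637645-152637944 (plus strand, 73.7% GC), where the median over all windows is 58.7% GC.
GABRE: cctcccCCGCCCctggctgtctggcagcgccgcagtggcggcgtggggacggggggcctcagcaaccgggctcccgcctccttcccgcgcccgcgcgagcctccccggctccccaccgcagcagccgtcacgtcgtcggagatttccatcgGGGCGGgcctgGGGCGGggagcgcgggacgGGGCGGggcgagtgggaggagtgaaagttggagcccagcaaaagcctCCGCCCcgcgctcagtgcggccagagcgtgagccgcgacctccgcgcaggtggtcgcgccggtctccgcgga
GABRQ: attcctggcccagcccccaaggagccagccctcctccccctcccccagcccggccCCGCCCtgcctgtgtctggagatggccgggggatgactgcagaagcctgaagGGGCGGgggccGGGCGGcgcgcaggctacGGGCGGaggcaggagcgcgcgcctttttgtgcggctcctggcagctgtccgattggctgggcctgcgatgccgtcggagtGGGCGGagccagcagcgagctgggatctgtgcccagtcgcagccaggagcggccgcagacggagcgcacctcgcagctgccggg
In the cluster of 4 GABA-A genes on chromosome 4, GABRA4 and GABRB1 were tested and did not pass.

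GABA receptors of the retina are formed by rho subunits, and GABRR2 showed the highest fold change of any tested receptor gene. This gene reached the filter level in shIGF2BP3 only. It was thus tested through the group where it is high, and its place in this ranking depends on that filter. GABRR2 (chr6:89257208-89315299, minus strand) was counted 71 and 68 times under knockdown and 8 and 6 times in shControl, or 2.51 and 2.48 against 0.297 and 0.192 CPM. It rose 10.2-fold (log2 3.35, SE 0.52, adjusted p = 3.266e-05) from a control level of a few counts. GABRR3 was not tested, with 6 and 13 counts in shIGF2BP3 and 0 in both control libraries. Its shIGF2BP3 libraries stood at 0.212 and 0.474 CPM. Their mean, 0.343 CPM, is 3.09 times 0.111 CPM, which 3 counts give in the control library with the higher such floor. The counting error of the shIGF2BP3 counts is not covered by that value. GABRR1, the neighbour of GABRR2, was at 0 in every library.

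GABA-B receptors need both of their subunits to reach the cell surface and signal. GABBR1, the subunit that binds GABA, had 9.21 and 9.66 CPM in shIGF2BP3 and 5.27 and 6.10 in shControl (log2 0.72, SE 0.20, adjusted p = 0.00488). GABBR2, the subunit that couples to the G protein, had 0 and 3 against 5 and 8 counts and was not tested. The RNA of this obligate pair was thus unbalanced in both groups, with GABBR1 at 95.6% to 96.2% of the pair's summed level per kb in shControl and 98.8% to 100% in shIGF2BP3.

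Glycine receptor genes were nearly absent. GLRB, the beta subunit that binds gephyrin, had 20 and 37 against 25 and 17 counts and did not pass (log2 0.50, SE 0.53, adjusted p = 0.4602). GLRA1 and GLRA3 were at 0 in every library, GLRA2 had 2 counts in 1 control library and GLRA4 at most 8. In all, 12 of the 52 members were at 0 in every library and the 9 other untested members had at most 13 counts in any library.

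Genes that assist these receptors changed in both directions. Of 20 auxiliary subunit genes of glutamate receptors, 15 were tested, 6 rose (40.0%) and 3 fell (20.0%), beside 25.9% and 25.6% of all tested genes (median log2 change 0.51). CACNG4, a TARP that carries AMPA receptors to the membrane, fell from 60.6 and 63.1 CPM to 4.87 and 5.29 CPM (log2 -3.61, SE 0.13, adjusted p = 6.189e-13). OLFM1, a secreted AMPA receptor partner, fell from 269 and 272 to 98.2 and 100.4 CPM (log2 -1.44, SE 0.07). OLFM3 (log2 0.97, SE 0.09), SYNDIG1 (1.55, SE 0.23) and GSG1L (1.54, SE 0.26), also AMPA receptor partners, rose. The family of TARPs was split, since CACNG2, CACNG7 and CACNG8 rose while CACNG4 fell.

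Among scaffold and traffic genes of glutamate receptors, 25 of 26 listed had a row, 23 were tested, 12 rose (52.2%, against 25.9% of all tested genes) and 4 fell (17.4%, against 25.6%), with a median of 0.52. DLG4, which encodes the postsynaptic scaffold PSD-95 that binds NMDA receptors, had 50.4 and 45.7 CPM in shIGF2BP3 and 19.1 and 22.3 in shControl (log2 1.21, SE 0.11, adjusted p = 6.517e-08). Its relative DLG2 rose from 2.53 and 1.28 to 14.5 and 15.3 CPM (adjusted p = 1.505e-08). SHANK1 (1.26, SE 0.13) and SHANK2 (1.21, SE 0.09), the scaffolds beneath PSD-95, rose as well. GRIP1, which binds GluA2 and GluA3, fell from 10.5 and 10.6 to 0.918 and 1.35 CPM (log2 -3.22, SE 0.28, adjusted p = 2.68e-08).

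For GABA and glycine receptors, 19 of 22 scaffold and partner genes were tested, 8 rose (42.1%, all tested genes 25.9%) and 4 fell (21.1%, all tested genes 25.6%), with a median of 0.25. KCTD12, an auxiliary subunit of GABA-B receptors, fell (log2 -1.08, SE 0.07), and the inhibitory synapse gene IQSEC3 (2.37, SE 0.16), the GABA-A trafficking genes GABARAPL1 (1.41, SE 0.11) and PLCL1 (1.79, SE 0.18), and the transport adaptor TRAK2 (0.66, SE 0.07) rose. Of 30 genes of transmitter synthesis, transport and chloride balance, 18 were tested, 5 rose and 5 fell (27.8% each, median -0.31), shares near the 25.9% and 25.6% of all tested genes. Both enzymes of GABA breakdown rose, ABAT from 30.9 and 34.0 to 111.6 and 119.7 CPM (log2 1.83, SE 0.09, adjusted p = 1.412e-11) and ALDH5A1 from 21.8 and 20.1 to 47.2 and 48.4 CPM (log2 1.19, SE 0.11). GLUL, which makes glutamine from glutamate (log2 -0.67, SE 0.07), GLUD1, glutamate dehydrogenase (-0.53, SE 0.07), and SHMT1, which interconverts serine and glycine (-1.54, SE 0.21), fell.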

How the data were processed

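The authors deposited whole-number counts per Ensembl gene for each library. The submitters' processing notes name HISAT2 2.2.0, StringTie and hg38, without order or settings. No source used here gives the annotation, the strandedness or the way reads were counted, so overlapping and closely related genes are uncertain. Symbols came from a table of gene names (56105 identifiers) and GENCODE release 29 (486), which also gave coordinates and exon lengths on GRCh38. GLRA4, protein-coding in GENCODE, is a pseudogene in RefSeq.

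All genes were fitted on these counts in R 4.3.3 by edgeR 4.0.16: filterByExpr with a smallest count of 10, TMM, the robust quasi-likelihood test with group as the only term, and Benjamini-Hochberg adjustment over 19767 genes at 0.05. The filter asked for 0.36 CPM before TMM scaling in at least 2 libraries. Residual degrees of freedom were 2, and the median prior was 15.06, so p-values rest largely on library scatter pooled over genes. Levels per kb are CPM over the merged exon length of a gene. Members and gene lists were chosen with earlier results of these data known. Members are named, apart from some that are not reported here, and up to 5 genes of each pathway list by smallest p, beside marker genes and CACNG2, CACNG7 and CACNG8, chosen after their values were seen. The pipeline was tested on simulated counts. The alternatives changed the scaling, the filter or the test (DESeq2 1.42.0, limma 3.58.1 voom), added a replicate block or left out each library; an older edgeR fit was chosen after seeing the data.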

Additional observations from a re-analysis of the deposited data

How the results depend on the processing

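The count of receptor genes that rose was 17, and 12 to 18 under the other scalings, filters and tests; the count that fell was 4, and 3 or 4. Leaving out each library gave 12 to 14 that rose, 3 or 4 that fell, and 8800 to 9442 changed genes of all kinds, against 10178 with all 4 libraries. Library size alone moved the median of all genes to 0.09, with 5739 higher and 4405 lower, against 5120 and 5058. Replicate numbers gave no sign of pairing (correlation of same-numbered deviations 0.02, over only 2 numbers), and the replicate block gave 17 higher, 4 lower and 10509 changed genes. Across 395 values of single receptor genes, 33 lost and 3 gained a call. No gene past the test changed sign, and 11 of 17 that rose and 3 of 4 that fell passed in each alternative that gave a value. Signs turned in 8 values, all of genes that did not pass: GRIK5 with library size alone (0.018) and, over the fits that leave out 1 library, GRIK5 (-0.22 to 0.11), GRM2 (-1.24 to 0.13), GRM6 (-0.23 to 0.64), GABRA4 (-0.49 to 0.16), GABRG3 (-0.68 to 0.023) and GLRB (-0.029 to 0.91). The low members GABRA3, GABRA5 and GRIN2C lost their call when 1 library was left out, as did the abundant GRIA4. With 1 library left in a group, it is assumed to vary like those of the other group. The labels do not show whether libraries are separate cultures.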
